A study of Mus musculus with 20 samples.

Results

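The 8 colon libraries from mice on a high fat diet were divided into 2 sides. Side A held 2 control libraries (ff 1 and ff 3) and 2 knockout libraries (Vill 1 and Vill 2), and side B held the other 2 controls (ff 2 and ff 4) and the other 2 knockouts (Vill 3 and Vill 4). They are 8 of the 20 libraries of the series. The sides were chosen from the read counts themselves, as the division with equal numbers of each genotype across which most genes differed, so every difference between side A and side B given here is a description of how these libraries vary and carries no test. The working name for ff 1 and ff 3 was that they carried genes of the ileum, and those libraries are set apart below.

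The study asked what loss of Pcca does to gene expression in the colon. The protein made from Pcca is 1 of the 2 kinds of subunit of propionyl-CoA carboxylase, through which mitochondria pass carbon from propionate to the citric acid cycle. The ff mice carried floxed Pcca and were the littermate controls, and the Vill mice were Villin-Cre Pcca knockouts, in which the Cre recombinase is driven by a promoter of intestinal epithelial cells, so the muscle, nerve, stromal and blood cells of the wall are not its target. All 8 were males that ate chow until 6 weeks of age, when a diet that drew 60% of its calories from fat took its place for 12 weeks. They were killed at 18 weeks after a fast of 4 hours. The 12 chow libraries, used here only for comparison, came from mice of 9 weeks, also after a fast of 4 hours. They were 4 ff, 4 Vill and 4 Alb, the last with Pcca deleted in the liver by Albumin-Cre. The chow mice differed from the high fat mice in sex as well as in diet and age. Each library was polyA RNA from flushed pieces of colon, and the labels do not say from which stretch of the colon a piece was cut.

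The mouse large bowel is not uniform along its length. Hox genes, which encode the transcription factors that set position along the body axis, are used in order from the proximal to the distal gut, and the surface epithelium switches from one set of ion, water and acid transporters to another along the same path. The wall also holds layers of smooth muscle with the enteric nervous system between them, and scattered lymphoid follicles filled with B cells.

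Libraries held 16.9 to 24.4 M counted reads (M for 1000000). Values are given as CPM, the reads of a gene per 1000000 reads of the library, scaled between libraries by TMM, and as log2 differences. A count of 0 allows a level of up to 0.12 to 0.17 CPM, depending on the library, for counting error only. Mitochondrial genes took 6.30 to 9.75% of the reads in side A and 4.5 to 6.29% in side B, and the part of this in the differences below was not tested. On the first principal component, which carried 45.3% of the variance, the order was ff 1, ff 3, Vill 2, Vill 1, ff 4, ff 2, Vill 3, Vill 4. No 2 libraries were alike enough to be 1 library deposited under different names. The labels do not say that replicates came from different animals, so p-values measure the spread between these samples, which may in part be technical. Among epithelial genes, Epcam stood at 1493 to 1984 CPM in all 8 libraries. The summed level of the general epithelial genes varied more, from 13100 CPM in ff 1 to 22100 CPM in Vill 1. Markers of pancreatic acinar cells, which lie near the gut, summed to at most 0.425 CPM.

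Pcca, the gene deleted in the Vill mice, did not separate the genotypes in these whole-colon libraries. It stood at 29.7, 53.7, 32.3 and 59.4 CPM in ff 1 to ff 4 and at 34.0, 37.4, 33.1 and 33.7 CPM in Vill 1 to Vill 4. The 4 Vill libraries lay close together, and between the low ff pair of side A and the high ff pair of side B. Among the chow libraries, Pcca stood at 27.7 to 33.6 CPM in Vill and at 38.9 to 58.3 CPM in ff and Alb, without overlap. With the side in the model, Vill differed from ff by -0.28 on the log2 scale (SE 0.19, 95% interval -0.71 to 0.15, edgeR adjusted p = 0.716). Within side A the Vill pair was 0.20 above the ff pair on the log2 scale, and within side B it was -0.76 from it. An exact permutation test of Pcca within the sides gave a two-sided p of 0.333, where 36 assignments allow no p below 0.0556. Pccb, the beta subunit of the same enzyme, stood at 114 to 175 CPM in the ff libraries and 143 to 182 CPM in the Vill libraries (log2 0.13, edgeR adjusted p = 0.782). The counts cover whole genes, and which exons the deletion removes is not given in the sources used here.

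Across the 13851 genes with a mean of 2 CPM or more, 644 were higher in all 4 side A libraries than in any side B library by a log2 difference of 1 or more, which is 4.65% of them. Another 211, or 1.52%, were higher in side B in the same way. These shares describe the choice of the sides and nothing is read from them. By edgeR at an adjusted p under 0.05, the measure that chose the sides, 975 of 19164 tested genes differed (5.09%), 678 of them higher in A (3.54%) and 297 higher in B (1.55%). Taking the genotypes apart divided genes into classes by cut-offs on pairs of 2 libraries, and whether the genotypes differ in this was not tested. In 475 genes (3.43%) both genotypes had the side A pair at least 1 log2 unit above the side B pair, and in 148 (1.07%) both had it below. In 227 genes (1.64%) ff 1 and ff 3 stood above ff 2 and ff 4 while the Vill pairs differed by less than 0.5 log2 units, and in 222 (1.6%) they stood below. In 76 genes (0.549%) Vill 1 and Vill 2 stood above Vill 3 and Vill 4 while the ff pairs differed by less than 0.5. In 97 (0.7%) they stood below. Some genes of the Vill classes, such as Des and Cnn1, still had ff 1 and ff 3 above ff 2 and ff 4. At the edge of the shared classes, the smaller of the 2 differences was 1.0008 for Smtn, just inside, and 0.9981 for Hip1, just outside, and on the B side -1.0036 for Csf2rb and -0.9919 for Cytip in the same order. Without Vill 4 the genes higher in A in both genotypes numbered 306, and without ff 3 those higher in B numbered 226. The small Vill class higher in Vill 1 and Vill 2 held 120, 46, 168 and 143 genes without ff 1, ff 3, Vill 3 and Vill 4, respectively. The Vill class lower in Vill 1 and Vill 2 held 149 genes without Vill 2 and 152 without Vill 4.

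**Figure D1:**
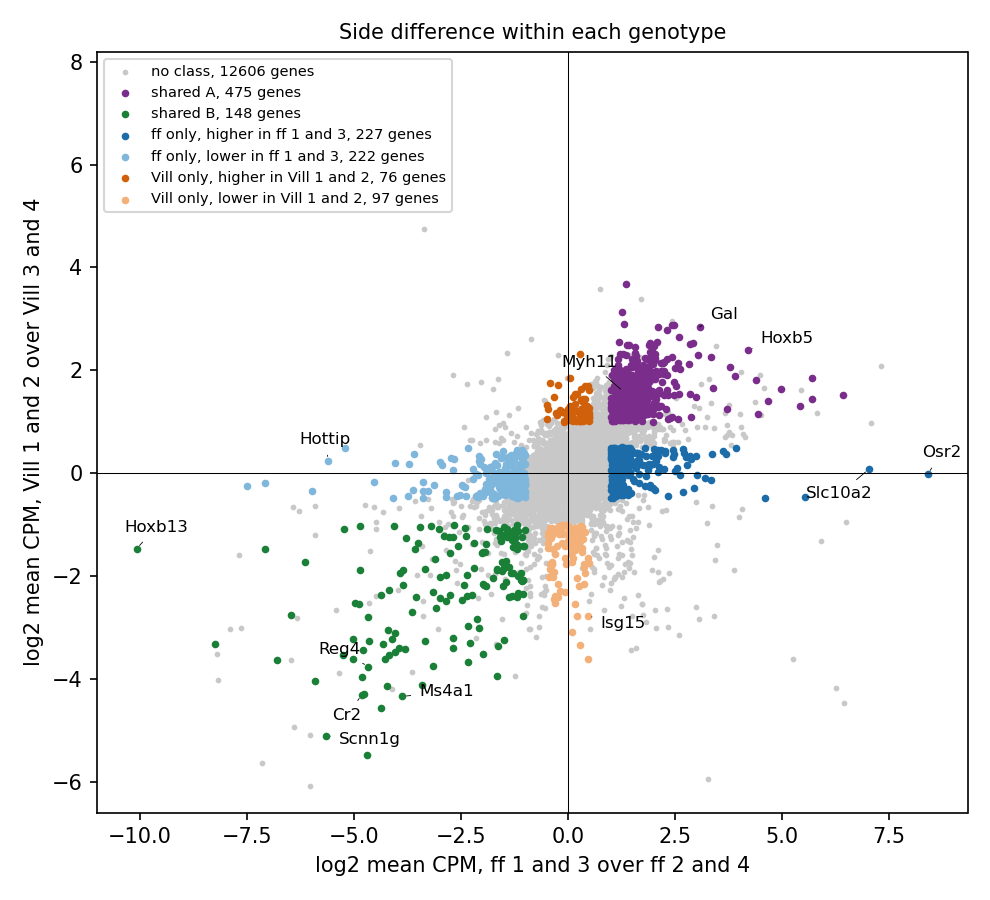
Each point is 1 gene with a mean of 2 CPM or more. The horizontal axis gives the log2 ratio of mean CPM of ff 1 and 3 over ff 2 and 4, the vertical axis that of Vill 1 and 2 over Vill 3 and 4, and colours mark the 6 classes. The B cell genes Cr2 and Ms4a1 lie low on both axes, while Slc10a2 and Osr2 lie far right at a vertical value near 0.

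Several Hox genes showed a graded order over the libraries, while others ran against it. Hoxb13, the most posterior gene of its cluster, stood at 0 CPM in ff 1 and 0.35 CPM in ff 3, at 65.7 and 89.3 CPM in Vill 1 and Vill 2, and at 274, 103, 279 and 149 CPM in ff 2, ff 4, Vill 3 and Vill 4. The 3 levels did not overlap: nearly no reads in the ff pair of side A, intermediate values in the Vill pair of side A, and the highest values in side B. Hoxb6, from the middle of the same cluster, ran the other way, with 196 and 174 CPM in ff 1 and ff 3 and 0.90 to 5.61 CPM in the other 6 libraries. The 7 genes Hoxb2 to Hoxb8 were all higher in side A, 5 of them without overlap, with a median log2 difference of 3.5. Over all tested genes 48.9% were higher in A, 8.54% were higher without overlap, 5.2% were lower without overlap, and the median difference was -0.01. For Hoxb2 to Hoxb8 the median was 4.97 between the ff pairs and 1.64 between the Vill pairs. Hoxb5 lay at 54.5 and 56.6 CPM in ff 1 and ff 3, at 4.36 and 5.72 CPM in Vill 1 and Vill 2, and at 0.64 to 3.55 CPM in side B.

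Other Hox clusters did not follow the Hoxb pattern in every respect. Hoxd4, a gene of the anterior part of its cluster, was at 6.75 and 6.23 CPM in ff 1 and ff 3 and at 0.37 CPM or less in the other libraries. Hoxd13, at the posterior end, was at 0 CPM in both ff 1 and ff 3, 9.13 CPM in ff 2, 3.17 CPM in ff 4, 1.69 and 4.71 CPM in Vill 1 and Vill 2, 44.8 CPM in Vill 3 and 0.36 CPM in Vill 4. So Vill 4 stood below both Vill libraries of side A for this gene, although it was the most extreme library of side B on the first component. Hoxd10 ran against Hoxd13, at 11.5 and 6.11 CPM in ff 1 and ff 3 and at 0.18 to 2.92 CPM elsewhere. Of 11 Hoxa genes 3 were higher in A, with a median of -0.99 between the ff pairs and 0.26 between the Vill pairs. Hoxa13 read 3.35 and 21.2 CPM in ff 1 and ff 3 and 49.8 to 71.0 CPM elsewhere. Hoxa11 ran the other way without overlap, at 6.78 to 9.16 CPM in side A and 2.34 to 4.90 CPM in side B. Hottip, a long noncoding RNA transcribed beside Hoxa13, was at 0 and 1.86 CPM in ff 1 and ff 3 and at 36 to 53.5 CPM elsewhere. Whether the counts used strand is not given in the sources used here, so reads where Hottip and Hoxa13 may overlap cannot be told apart.

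Most genes of the distal large bowel were low in ff 1 and ff 3. None of the 7 tested genes of that list was higher in side A and 3 were higher in B without overlap. The median log2 difference was -2.99. Of all tested genes, 48.9% were higher in A and 5.2% higher in B without overlap. The exceptions were Hoxd11, at 3.00 and 1.75 CPM in ff 1 and ff 3 and 0.98 and 0.14 CPM in ff 2 and ff 4, and Scnn1b, the beta subunit of the epithelial sodium channel, which was lowest in ff 4 at 2.52 CPM and stood at 3.75 and 3.20 CPM in ff 1 and ff 3. Insl5, a hormone of enteroendocrine cells of the colon, stood at 1.26 and 3.78 CPM in ff 1 and ff 3, at 27.2 and 50.8 CPM in Vill 1 and Vill 2 and at 63.2 to 128 CPM in side B. Its order of libraries was that of Hoxb13: the ff pair of side A lowest, the Vill pair next, side B highest. Scnn1g, the gamma subunit of the epithelial sodium channel, was at 0 CPM in ff 1 and ff 3, 0.33 and 0.18 CPM in Vill 1 and Vill 2, 6.99 and 0.70 CPM in ff 2 and ff 4, and 16.6 and 1.00 CPM in Vill 3 and Vill 4. Of 20 genes of colonocyte ion and water transport, 5 were higher in A and 15 higher in B. Best2, a chloride and bicarbonate channel of goblet cells, was at 1.18 and 3.43 CPM in ff 1 and ff 3, 8.83 and 13.2 CPM in Vill 1 and Vill 2 and 24.0 to 86.9 CPM in side B. Atp12a, the proton and potassium pump of the colon surface, was at 1.96 and 1.75 CPM in ff 1 and ff 3, 39.4 and 64.8 CPM in Vill 1 and Vill 2, 716 CPM in ff 2, 21.8 CPM in ff 4, 645 CPM in Vill 3 and 191 CPM in Vill 4.

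**Figure D2:**
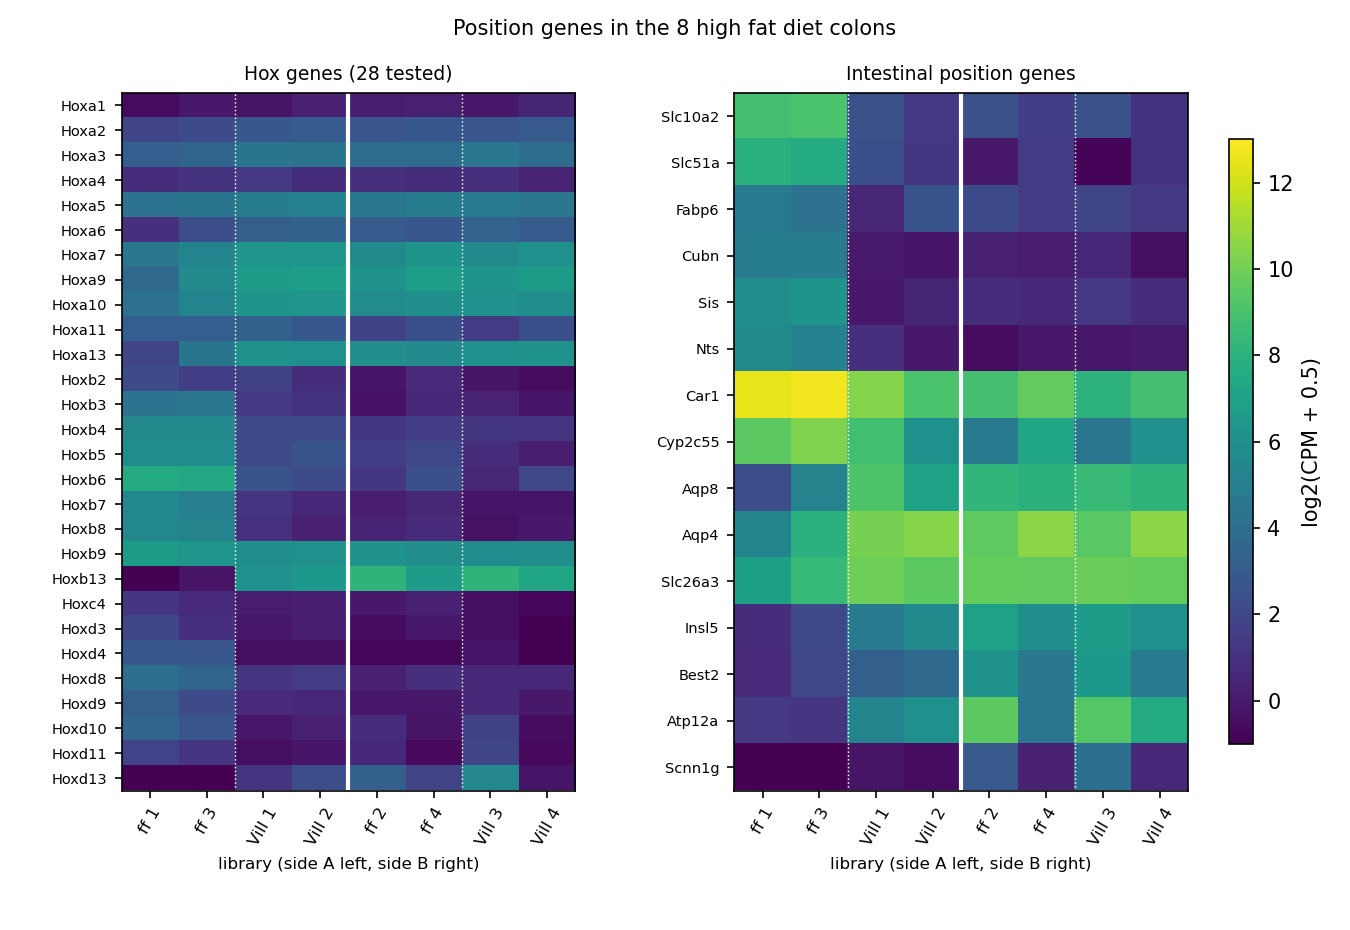
The colour gives log2 of CPM plus 0.5 for each gene (row) in each library (column), with side A left of the thick line and dotted lines between genotypes. ff 1 and ff 3 are high in Hoxb2 to Hoxb8, Slc10a2 and Slc51a and low in Hoxb13, Insl5 and Scnn1g.

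ff 1 and ff 3 shared a further set of genes that were at low levels in the other 6 libraries. Osr2, a zinc finger transcription factor, stood at 109 and 107 CPM in ff 1 and ff 3 and at 0.42 CPM or less in the other 6 libraries. Slc10a2, the sodium-coupled transporter that takes up bile acids at the apical surface, stood at 447 and 520 CPM against 1.59 to 5.10 CPM. Slc51a, a subunit of the basolateral bile acid exporter, stood at 240.2 and 194 CPM against 0.05 to 4.91 CPM. Cubn, the receptor subunit that takes up vitamin B12 bound to intrinsic factor, stood at 30.3 and 29.0 CPM against 0.23 to 0.96 CPM. Sis, the sucrase-isomaltase of the brush border, stood at 59.4 and 76.5 CPM against 0.44 to 2.02 CPM, and the enteroendocrine peptide neurotensin, Nts, at 49.1 and 34.7 CPM against 0.16 to 1.36 CPM. For each of these genes ff 1 and ff 3 stood above all other libraries with a wide gap. Among those others the Vill libraries of side A were not always within the range of side B: Vill 1 was the highest of the 6 for Slc51a and Nts and the lowest for Sis. The remaining genes of this class named by size of difference were Ugt8a, Hoxd9, Lypd8l, Mfap3l and the carboxylesterase Ces2b, with log2 differences of 3.36 to 4.59 between the ff pairs and -0.48 to 0.49 between the Vill pairs.

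Genes of the small bowel gave a mixed picture of ff 1 and ff 3: many were higher there than in the other controls, while several that define the ileum and upper small bowel were at or near 0. Of the 6 genes of ileal bile acid handling, 5 could be tested, and all 5 had both ff 1 and ff 3 above both ff 2 and ff 4, an order found for 26.1% of all tested genes (26.2% had the reverse). All 12 tested genes of fat absorption were higher in ff 1 and ff 3 than in ff 2 and ff 4 by pair means, with a median log2 difference of 0.77, and 5 had both libraries above. Of 16 tested genes of the small intestinal brush border 11 were higher, 8 with both libraries above and 2 with both below, with a median of 0.95. The sixth bile acid gene, Fgf15, the hormone by which the ileum signals bile acid uptake to the liver, was at 0 and 0.17 CPM in ff 1 and ff 3. Fabp6, the bile acid binding protein of ileal enterocytes, reached 25.5 and 17.9 CPM against 0.93 to 5.72 CPM in the other libraries. The lipoprotein gene Apoa4 stood at 0.39 and 0.41 CPM against 0 to 0.23 CPM, lactase (Lct) at 0.22 and 0.23 CPM against 0 to 0.18 CPM, and the Paneth cell defensin Defa24 at 1.61 and 3.26 CPM, where Vill 2 also had 3.05 CPM. Lyz1, the lysozyme of Paneth cells, was at 4.22 and 6.81 CPM, within the range of the other 6 libraries. Car1, a carbonic anhydrase of large bowel epithelium, stood at 5763 and 6907 CPM in ff 1 and ff 3 against 265 to 1345 CPM. ff 1 and ff 3 are named here by their leading genes, Osr2 and Slc10a2, and by their Hox genes, and are given no name of a gut segment.

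Some genes of large bowel epithelium were low in ff 1 and ff 3, but not all to the same level. The water channel Aqp8 stood at 4.57 CPM in ff 1 and 37.9 CPM in ff 3, and at 135 to 568 CPM elsewhere. Aqp4, another water channel, stood at 39.7 and 239 CPM against 679 to 1511 CPM, and Slc26a3, the chloride and bicarbonate exchanger, at 124 and 334 CPM against 701 to 944 CPM. For all 3 genes ff 1 was the lowest library and ff 3 the next. Cyp2c55, a cytochrome P450, stood at 720 and 1263 CPM in ff 1 and ff 3, at 428 and 65.5 CPM in Vill 1 and Vill 2, and at 21.9 to 152 CPM in side B. Genes low only in the ff pair of side A included the secreted phospholipases Pla2g2a (0.13 and 0.12 CPM against 4.83 to 14.0 CPM) and Pla2g5 (0.78 and 1.75 CPM against 13.4 to 37.7 CPM), whose annotated positions overlap, so part of their reads may be the same. Anxa8, an annexin, stood at 3.14 and 10.9 CPM against 81.5 to 147 CPM. Sycn (log2 -4.09 between the ff pairs), Ly6m (-4.05) and Scgb1b3 (-5.21) completed the genes of this class named by size.

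The upstream sequences of 3 position genes are shown because all hold the same 6-base motif of CDX factors, the homeobox proteins of intestinal identity, whichever end of the order the gene marks. Each is the 250 bases before the annotated start in RefSeq on GRCm38.p6, read 5′ to 3′ on the strand of the gene, and lies outside the transcript. Capitals mark the motif TTTATG, or CATAAA where it lies on the other strand. Slc10a2 lies at chr8:5105288-5105537 (minus strand), Insl5 at chr4:103026729-103026978 (minus strand) and Scnn1g at chr7:121734229-121734478 (plus strand).
Slc10a2: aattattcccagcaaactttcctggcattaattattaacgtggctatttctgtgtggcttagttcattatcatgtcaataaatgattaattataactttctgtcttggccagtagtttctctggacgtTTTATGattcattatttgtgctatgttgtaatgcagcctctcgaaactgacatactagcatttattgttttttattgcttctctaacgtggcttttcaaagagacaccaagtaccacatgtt
Insl5: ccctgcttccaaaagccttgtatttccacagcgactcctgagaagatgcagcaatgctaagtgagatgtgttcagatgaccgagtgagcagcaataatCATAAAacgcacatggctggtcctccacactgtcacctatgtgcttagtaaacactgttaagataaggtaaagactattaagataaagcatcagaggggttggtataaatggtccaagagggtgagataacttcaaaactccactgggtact
Scnn1g: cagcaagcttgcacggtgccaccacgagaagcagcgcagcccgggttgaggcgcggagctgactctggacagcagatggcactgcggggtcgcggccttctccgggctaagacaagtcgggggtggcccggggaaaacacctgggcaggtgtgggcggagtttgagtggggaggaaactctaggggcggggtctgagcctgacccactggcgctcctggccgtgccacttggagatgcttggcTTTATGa
The motif was found on either strand in 3 of the 5 ileal bile acid genes with a promoter in the table (Slc10a2, Fabp6 and Nr1h4) and in 3 of 7 distal large bowel genes (Hoxd11, Insl5 and Scnn1g). It was found in 10.8% of all 32851 promoters. A gene counted if any of its promoters held the motif, while the share is over single promoters, so the measures differ. The same holds for the other motifs below. Of the other lists searched, it was in 0 of 5 large bowel epithelium genes, 0 of 8 smooth muscle genes, 2 of 9 neuron and glia genes, 1 of 6 B cell genes and 1 of 2 Hoxb genes. The serum response CArG box was in 0 of 8 smooth muscle promoters (1.47% of all) and the octamer ATGCAAAT of B cell promoters in 0 of 6 B cell genes (1.6% of all), which says only that these letters are not in these windows.

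B cell and follicle genes were lower in side A in both genotypes. All 10 tested genes of that list were higher in side B without overlap, as were 5.2% of all tested genes. The median log2 difference was -4.06, with -4.56 between the ff pairs and -3.58 between the Vill pairs. Cr2, the complement receptor of B cells and follicular dendritic cells, stood at 0.52, 0.52, 1.36 and 0.37 CPM in ff 1, ff 3, Vill 1 and Vill 2, and at 18.0, 11.6, 10.3 and 24.2 CPM in ff 2, ff 4, Vill 3 and Vill 4. Ms4a1, the CD20 antigen, stood at 0.55 to 1.36 CPM in side A and 12.0 to 26.8 CPM in side B. Pax5, the transcription factor of B cell identity, stood at 0.04 to 0.98 CPM and 6.75 to 13.3 CPM. Cxcl13, the chemokine that draws B cells into follicles, stood at 0.88 to 3.03 CPM and 5.04 to 13.9 CPM. The summed level of the 10 genes was 3.35 to 15.2 CPM in side A and 75.6 to 175 CPM in side B. In whole tissue, fewer cells of a type and less RNA per cell cannot be told apart.

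Genes named by the size of the smaller difference on side B were mostly of the same kind. Besides Cr2 and Pax5 they included Ms4a1, the B cell kinase Blk, the IgE receptor Fcer2a and Fcrl1, with differences of -3.87 to -6.80 between the ff pairs and -3.61 to -4.34 between the Vill pairs. Fcer2a had no read in ff 1 or ff 3, so its ff difference is against a floor of 3 reads. Gp2, the uptake receptor of the M cells that overlie follicles, stood at 0.26, 0.17, 0.38 and 0 CPM in side A and at 4.76, 4.20, 3.08 and 5.94 CPM in side B. Others were Scnn1g, Fxyd4, a regulator of the sodium pump, and Reg4, a lectin of secretory cells of the colon. Reg4 stood at 32.8, 19.8, 95.7 and 70.2 CPM in side A and at 710, 629, 442 and 1804 CPM in side B. Plasma cell genes had the same direction with more overlap. All 5 tested genes were higher in B, 2 without overlap (5.2% of all tested genes), with a median of -1.07. Igha, the IgA heavy chain, stood at 62.8 to 178 CPM in side A and 132 to 376 CPM in side B.

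Smooth muscle and enteric nerve genes were higher in side A. All 12 smooth muscle genes were higher in A without overlap, as were 8.54% of all tested genes, with a median log2 difference of 1.23. Myh11, the smooth muscle myosin heavy chain, stood at 1543, 1322, 1411 and 1194 CPM in ff 1, ff 3, Vill 1 and Vill 2 and at 529, 634, 655 and 214 CPM in ff 2, ff 4, Vill 3 and Vill 4. The groups were separated by a gap, with Vill 4 alone at the bottom. Des, the muscle filament desmin, and Cnn1, calponin, stood apart more in Vill (1.69 and 1.70) than in ff (0.46 and 0.41). This placed them in the Vill class by the cut-offs, although neither overlapped between the sides. The difference of these within-genotype values was not tested.

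All 14 genes of neurons and glia were higher in side A, 10 without overlap (8.54% of all tested genes), with a median of 1.61. Elavl4, an RNA binding protein of neurons, stood at 25.6, 14.7, 10.5 and 13.2 CPM in side A and at 6.44, 8.45, 6.53 and 0.91 CPM in side B. Nos1, the enzyme of inhibitory motor neurons, stood at 29.7 to 40.3 CPM and 1.04 to 15.4 CPM, again with Vill 4 lowest. The shared side A genes named by size included the neuropeptide galanin (Gal), the neurotrophin receptor Ntrk2 and the potassium channel partner Kcnip1, which with Vat1l, Gpr22 and Pgbd5 had differences of 2.44 to 3.33 between the ff pairs and 2.27 to 2.89 between the Vill pairs. Gal stood at 28.5, 13.6, 4.58 and 6.05 CPM in side A and at 2.03, 2.99, 1.43 and 0.05 CPM in side B. Others were Hoxb5, the homeobox gene Nkx3-2, the cholecystokinin receptor Cckar, Srpx and the heparan sulphate proteoglycan Gpc3.

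Other cells of the wall did not move as a block. Among interstitial cells of Cajal, the pacemakers of the muscle, Kit stood at 56.5 to 94.5 CPM with a difference of 0.00, while Ano1, their chloride channel, stood at 40.4 and 35.1 CPM in ff 1 and ff 3 and at 157 to 336 CPM elsewhere. Thbs4, a matrix protein, stood at 19.6 and 44.0 CPM against 260 to 518 CPM. Etv1, a transcription factor of these cells, ran the other way without overlap, at 17.7 to 31.1 CPM in side A and 4.90 to 14.7 CPM in side B. All 9 fibroblast genes were higher in A, 2 without overlap, against 48.9% and 8.54% of all tested genes. Their medians were -0.09 between the ff pairs and 0.71 between the Vill pairs. Col3a1, the type III collagen, stood at 121 to 218 CPM in A and 114 to 188 CPM in B, whereas Dpt, dermatopontin, stood at 98.2 to 147 CPM and 37.3 to 67.9 CPM. All 9 adipocyte genes were higher in A but none without overlap, and 5 of their differences rested on a floor of 3 reads. Of 11 general epithelial genes 5 were higher in A, with a median of -0.06, near that of all genes.

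**Figure D3:**
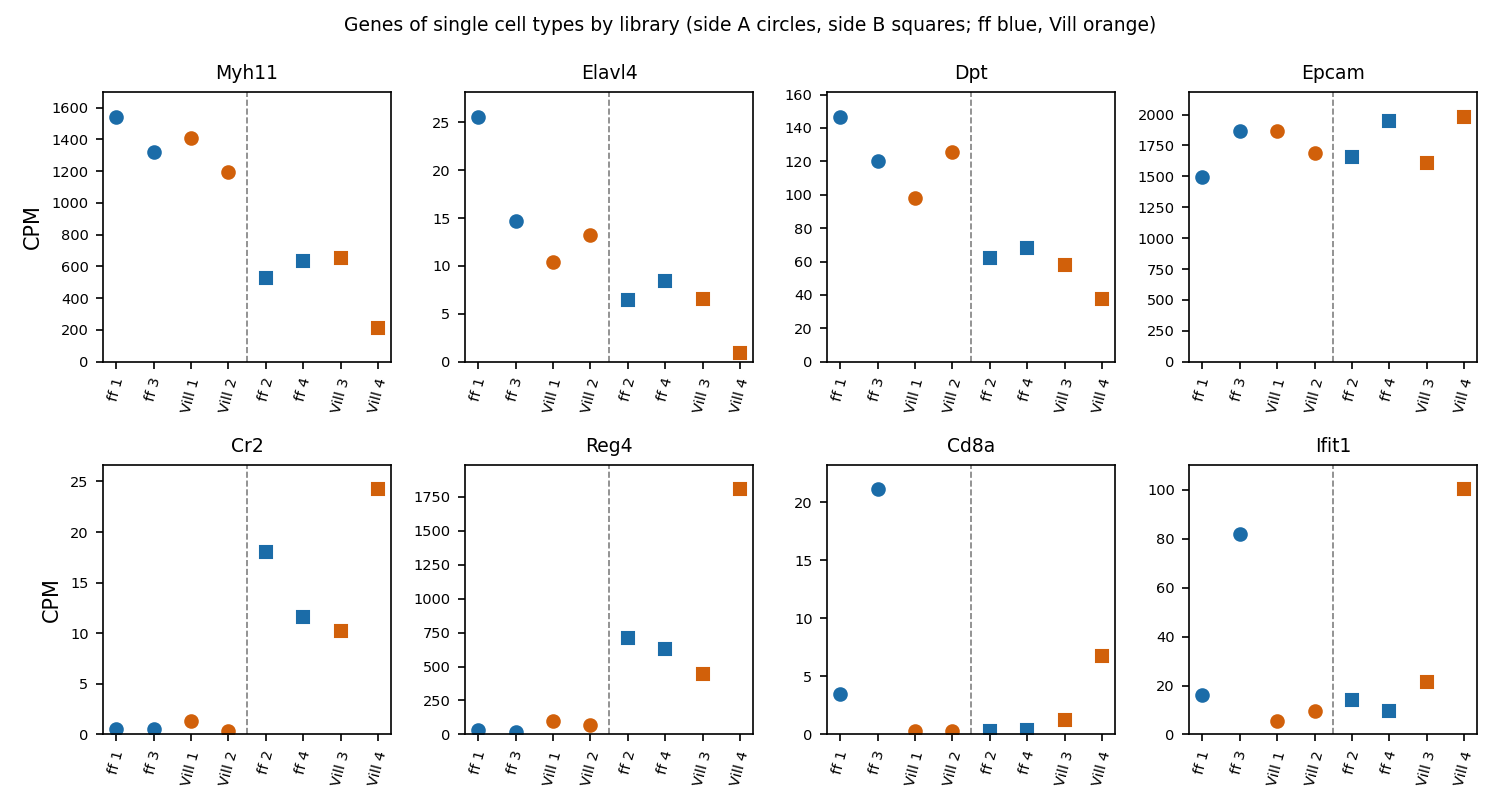
CPM of 8 genes in each library, with side A left of the dashed line as circles, side B right as squares, ff in blue and Vill in orange. Myh11, Elavl4 and Dpt are higher in the 4 side A libraries and Cr2 and Reg4 in the 4 side B libraries, Epcam is level, and Cd8a and Ifit1 are high in ff 3 and Vill 4.

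T cell, antigen presentation and interferon genes had medians of opposite sign in the genotypes, and in ff the levels of ff 3 stood apart from the other controls. The median T cell difference was 2.61 between the ff pairs and -3.01 between the Vill pairs. The summed T cell level was 14, 12, 103 and 9.29 CPM in ff 1 to ff 4 and 5.83, 4.52, 14.1 and 32.3 CPM in Vill 1 to Vill 4, so that ff 3 stood far above the other 3 controls. Cd8a, the coreceptor of cytotoxic T cells, stood at 21.1 CPM in ff 3, 6.76 CPM in Vill 4, 3.48 CPM in ff 1 and 0.27 to 1.22 CPM in the others. The granzyme Gzmb stood at 18.7 CPM in ff 3, 3.18 CPM in Vill 4 and 0.78 CPM or less in the others. MHC class II genes had medians of 0.55 and -1.83, and Cd74, the invariant chain, stood at 394 CPM in ff 3 and 249 CPM in Vill 4 against 29.4 to 138 CPM. Interferon response genes had medians of 1.25 and -1.84, with 7 of 11 genes higher in both Vill 3 and Vill 4 than in Vill 1 and Vill 2, against 19.2% of all tested genes (22.7% had the reverse). Ifit1, an antiviral protein, stood at 82.0 CPM in ff 3 and 100 CPM in Vill 4 against 5.67 to 21.4 CPM. ff 1 lay below ff 2 and ff 4 in the summed MHC class II level (116 against 340 and 270 CPM) and in the interferon sum (140 against 191 and 201 CPM), which is the direction of the Vill pairs. Without ff 3 the median difference between the sides went from 0.20 to -1.12 for T cell genes, from -0.63 to -1.69 for MHC class II and from -0.45 to -1.26 for interferon response, an alternative added after seeing the data. ff 3 and Vill 4 lie on different sides, and both were high for these 3 groups of genes.

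Of the genes in the Vill classes, the 8 largest differences in each direction are named. Lower in Vill 1 and Vill 2 were the mast cell protease Mcpt1, the immunoglobulin heavy chain Ighg2b, Rasgrp1, the class I gene H2-Q5, the interferon-induced Isg15, the integrin Itgal, Pik3ap1 and Ciita, the master regulator of MHC class II, with differences of -2.41 to -3.62. Isg15 stood at 1.74, 7.38, 7.60 and 54.9 CPM in Vill 1 to Vill 4, and at 1.57, 11.5, 25.4 and 8.17 CPM in ff 1 to ff 4. Higher in Vill 1 and Vill 2, besides Des and Cnn1, were the Wnt modulator Dkk2, the homeobox gene Hlx, Eya2, Gfra4, neuroglobin (Ngb) and Angptl2, with differences of 1.54 to 2.32. Dkk2 stood at 4.03, 3.32, 0.74 and 0.73 CPM in Vill 1 to Vill 4, while the ff libraries lay at 0.55 to 3.55 CPM, with ff 2 lowest and ff 4 highest.

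Cholesterol synthesis genes were lower in ff 1 and ff 3 than in the other controls. Of 15 genes, 13 had both ff 2 and ff 4 above both ff 1 and ff 3, an order found for 26.2% of all tested genes, with a median of -0.76 between the ff pairs and 0.12 between the Vill pairs. Sqle, the squalene epoxidase of the pathway, stood at 74.0 and 80.6 CPM in ff 1 and ff 3 and at 116 to 189 CPM elsewhere. The summed level of the pathway was 1250 and 1370 CPM in ff 1 and ff 3 and 1720 to 2530 CPM in the other 6 libraries.

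**Figure D4:**
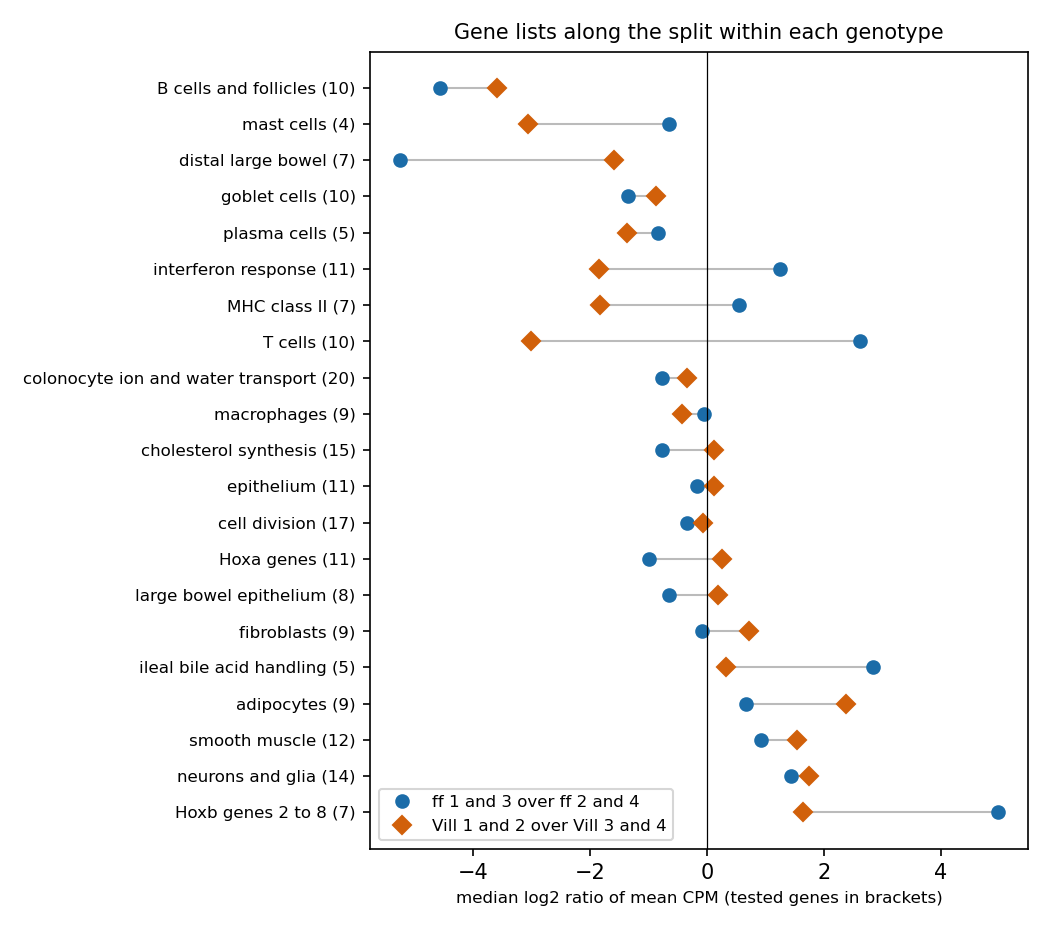
Median log2 ratio over the tested genes of each list, within ff (circles) and within Vill (diamonds), with the number of tested genes in brackets. Both genotypes lie far left for B cells and right for smooth muscle and nerve genes, Hoxb2 to Hoxb8 and ileal bile acid genes lie further right in ff, and T cells, MHC class II and interferon response lie on opposite sides of 0.

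Side B itself was not uniform. Genes were compared between ff 2 with Vill 3 and ff 4 with Vill 4, pairs chosen after their values were seen, so the result is a description. At a log2 ratio of 2 or more with no overlap, 56 genes (0.404%) were higher in ff 2 and Vill 3 and 83 (0.599%) higher in ff 4 and Vill 4. The first set held Scnn1g, Fxyd4, Hoxd13, Slc37a2, Casp14 and Tgm3. Tgm3, a transglutaminase of surface epithelium, stood at 1575 and 2240 CPM in ff 2 and Vill 3, 76.8 and 353 CPM in ff 4 and Vill 4, 114 and 203 CPM in Vill 1 and Vill 2 and 0.61 and 6.34 CPM in ff 1 and ff 3. The second set held goblet and crypt defence genes such as Retnlb, Ang4, Itln1 and Reg3b. Retnlb, an antibacterial product of goblet cells, stood at 1778 and 2146 CPM in ff 4 and Vill 4 and at 6.91 and 8.02 CPM in ff 2 and Vill 3, while the side A libraries lay between, at 61.3 to 324 CPM. The antibacterial ribonuclease Ang4 stood at 2751 and 5096 CPM in ff 4 and Vill 4 against 87.4 to 640 CPM in the other 6 libraries.

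The chow libraries took no part in choosing the sides, so the same genes were read in them. In the 12 chow libraries the SD within groups on the log2 scale had a median of 0.245 over the 13851 genes. It was 0.705 over the genes higher in A in both genotypes and 1.17 over those higher in B. Of those genes 61.5% and 91.2% lay above the 90th percentile of all genes, where 10% would lie by definition. Over the ff-only classes the median SD was 0.501 and 0.491, with 26.9% and 25.7% of genes above that percentile. Over the Vill-only classes it was 0.494 and 0.627, with 25% and 47.4% above. The genes that divide the high fat libraries thus varied among chow libraries of 1 genotype more than most genes did.

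Chow ff 2 and chow Vill 1 had part of the gene combination of high fat ff 1 and ff 3. Slc10a2 stood at 233 CPM in chow ff 2, 268 CPM in chow Vill 1 and 27 CPM in chow Alb 3, and at 0.984 to 10.5 CPM in the other 9 libraries. Osr2 stood at 71, 94.5 and 14.4 CPM in those 3 libraries and at 0.0766 to 0.772 CPM in the others. Hoxb6 stood at 53.6, 121 and 33.2 CPM against 1.85 to 12.3 CPM, and Car1 at 4890, 9590 and 3420 CPM against 486 to 1440 CPM. Hoxb13 was lowest in the same 3, at 7.51, 0.579 and 18.9 CPM against 80.5 to 475 CPM. The 3 libraries came from 3 different genotypes. Other genes did not follow: cholesterol synthesis genes, low in high fat ff 1 and ff 3, were highest in chow ff 2 and Vill 1 in the case of Hmgcs1 (514 and 486 CPM against 122 to 315 CPM) and Sqle (196 and 176 CPM against 51.1 to 142 CPM). Ly6m, lowest in high fat ff 1 and ff 3, was highest in chow ff 2, at 754 CPM, with chow Vill 1 at 222 CPM. Cr2 was at 0.44, 0.996 and 0.508 CPM in them, but was also low, at 0.306 CPM, in chow Vill 4 and, at 1.67 CPM, in chow Alb 1, where Slc10a2 stood at 3.14 and 4.55 CPM. In the remaining 7 it stood at 5.51 to 42 CPM. Low Cr2 therefore occurred in chow with and without the Osr2 and Slc10a2 combination, as it did in high fat side A. Chow values were scaled among the chow libraries only. Diet, age and sex differ together from the high fat group, so levels are not compared across diets.

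**Figure D5:**
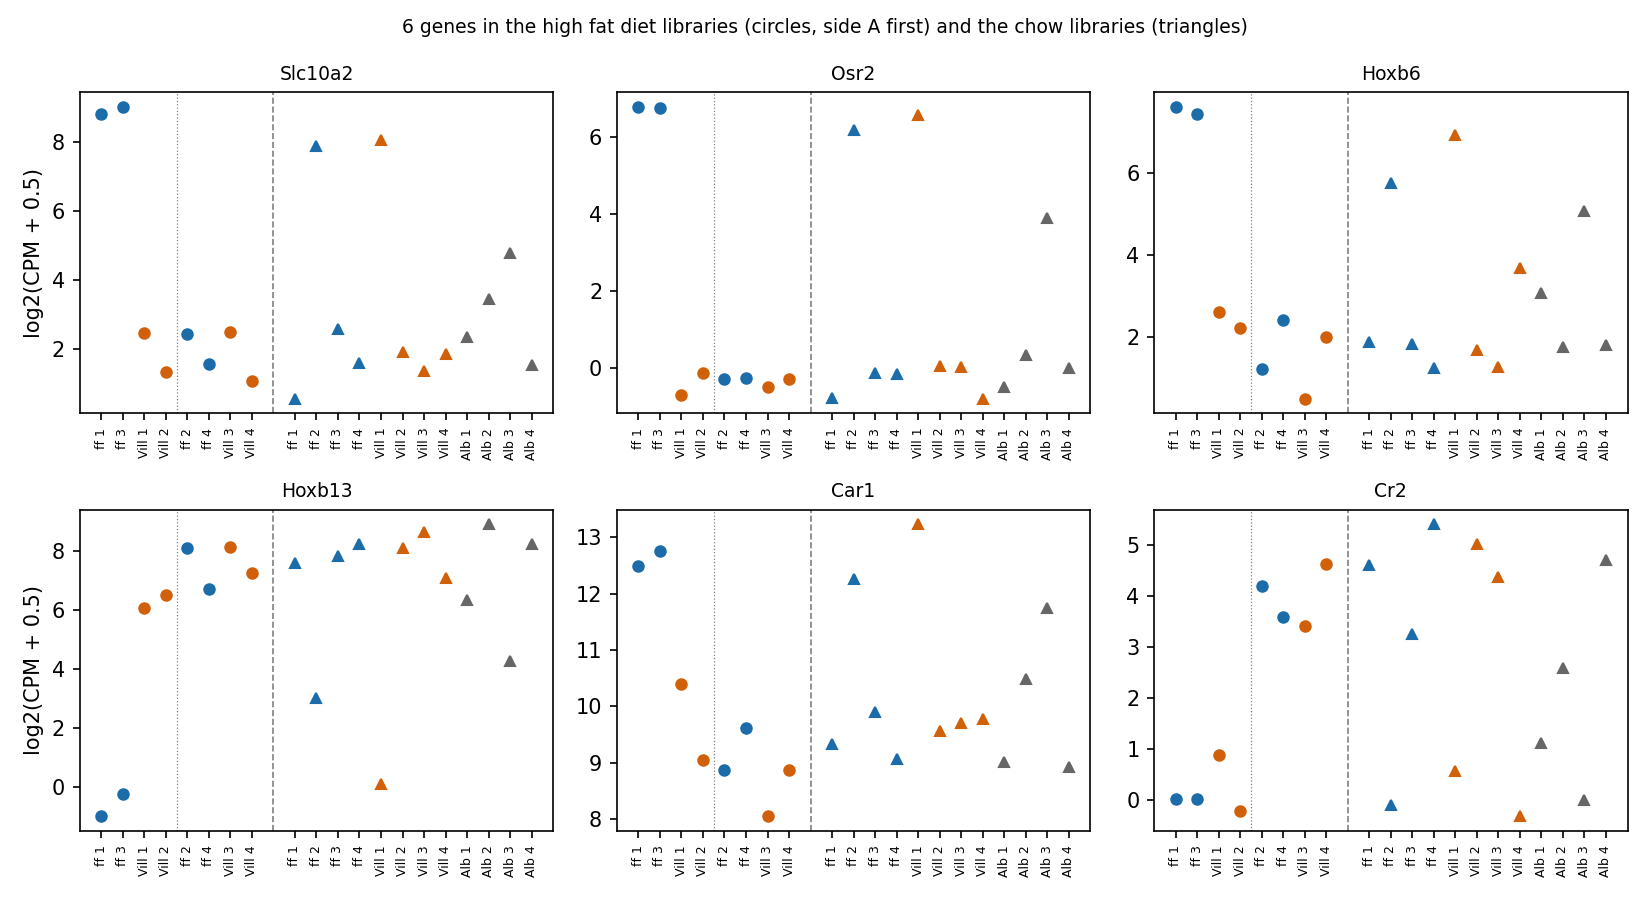
Log2 of CPM plus 0.5 for 6 genes in the 8 high fat libraries (circles, side A before the dotted line) and the 12 chow libraries (triangles), with ff blue, Vill orange and Alb grey. Chow ff 2 and Vill 1 stand with high fat ff 1 and ff 3 for Slc10a2, Osr2, Hoxb6 and Car1 and are low for Hoxb13, and the 2 tables were scaled separately.

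Comparing genotypes with the side in the model asked whether the knockout differed once a single shift between the sides was allowed for. Differences inside a side remained. Of genes at 2 CPM or more, 142 (1.03%) were higher in ff 1 and 3 than in Vill 1 and 2. Another 117 (0.845%) were lower, both at a log2 ratio of 2 or more without overlap. Within side A, genotype and these differences cannot be told apart, and this holds for the within-side Pcca values too. Of 19164 genes 1 was called by edgeR at an adjusted p under 0.05, which is 0.00522%, with the side in the model and 1 without it. The gene was Gm45774 (chr8:94897376-94900040 in mm39), an annotated gene model with no descriptive symbol, at 0.04, 0, 0.06 and 0.05 CPM in ff 1 to ff 4 and 78.0, 61.8, 40.4 and 61.2 CPM in Vill 1 to Vill 4. The groups did not overlap in either side (log2 10.53, 95% interval 9.76 to 11.30, edgeR adjusted p = 8.04e-06). The ff libraries held 3 of its reads and the Vill libraries 4880, which per read sequenced is 1670 times as many (exact 95% counting interval 570 to 8090). Genes at an unadjusted p under 0.05 numbered 1496 (7.81%) with the side and 691 (3.61%) without it, and the median standard error of the genotype difference was 0.221 and 0.253. Because the side was chosen from these counts, the spread left after it is too small and these p-values are too low. The number called depended on the method: DESeq2 called 55 genes, and a model that let the genotype difference vary with the side called 51. Without Vill 3 edgeR called 4 genes and without Vill 4 it called 2.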

How the data were processed

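PolyA RNA-seq read counts per gene were deposited by the authors as 2 tables, one of 31184 genes for the high fat libraries and one for chow, and the count columns were used as they stood. Per the submitters' processing notes, the tools were HISAT2 2.0.5, featureCounts 1.5.0-p3, DESeq2 1.20.0 and edgeR 3.22.5 and the build mm39, and their roles and the strand setting are not given in the sources used here. The other 28 columns of per-sample values were not used. The sides, gene lists and naming rules were chosen with earlier results of these data known.

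Genes passing edgeR's filterByExpr over genotype and side (19164) were scaled by TMM and fitted with edgeR 4.0.16 (quasi-likelihood) in R 4.3.3 on genotype and side, with Benjamini-Hochberg adjustment. CPM used the same scaling. Pair differences are log2 ratios of mean CPM with a floor of 3 reads over the pair. Genes were classed at a mean of 2 CPM, a log2 difference of 1 and less than 0.5 in the other genotype. Named genes are list members, Pcca and Pccb, and by size of difference the 12 shared genes on each side and 8 in each single-genotype class, without Gm and Rik models, and for genotype the genes called. A few genes that these rules name are not reported here. Alternatives used DESeq2 1.42.0 and limma 3.58.1. On simulated data for the genotype test (18726 genes), 4.48%, 40.3% and 83.3% of genes changed 1.5, 2 and 4-fold were recovered, and 6 of 91 calls were false. The simulation took the sides as fixed, whereas they were chosen from the counts, so its share of false calls does not carry over to the data. Promoters came from RefSeq on GRCm38.p6, and symbols without an entry were not searched.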

Additional observations from a re-analysis of the deposited data

Results flagged for a closer look

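Summed levels of the gene lists, depth, read shares, Pcca and Pccb were each screened within the 4 ff and the 4 Vill libraries (86 sets of 4) for 1 library lying apart from the other 3. For 4 independent values from 1 normal distribution the rule marks about 1 set in 20. Each set here held 2 libraries of each side, and some lists share genes. That share therefore does not carry over, and the number of marks is not read against it. ff 4 and Vill 4 stood apart for Paneth cell genes, at 2830 CPM against 106 to 211 and at 5210 CPM against 122 to 660, where Ang4 carried most of the sum. ff 4 also stood apart for goblet cell genes, at 41300 CPM against 9000 to 13900. The summed level of large bowel epithelium genes was low in ff 2, at 7020 CPM against 13900 to 15000. Muc2 (3060 to 9890 CPM over the high fat libraries) and Car1 (265 to 6910 CPM) reached the highest levels in this list. Of its 8 genes, 4 had both ff 2 and ff 4 above both ff 1 and ff 3, and 2 had the reverse. The median between the ff pairs was -0.643, so the sum does not describe the list as a whole. In Vill 3, ileal bile acid genes summed to 77.4 CPM against 125 to 130. Nr1h4 (57 to 80.7 CPM in side B) and Slc51b (12 to 39.7 CPM) had the highest levels of these. Slc10a2 stood at 5.10 CPM in Vill 3 and at 1.59 to 5.01 CPM in the other Vill libraries. Genes of interstitial cells of Cajal summed to 934 CPM in Vill 3 against 524 to 583. Thbs4 (271 to 518 CPM in side B) and Ano1 (192 to 336 CPM) had the highest levels of these. Kit stood at 70.3 to 79.7 CPM in side B. Skeletal muscle genes were at 15.2 CPM in Vill 1 against 6.64 to 7.17, and propionyl-CoA pathway genes at 888 CPM in Vill 1 against 974 to 985. T cell genes stood at 103 CPM in ff 3 against 9.29 to 14. Interferon response genes stood apart in ff 3, at 584 CPM against 140 to 201, and in Vill 4, at 669 CPM against 153 to 217.

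Some values ran in opposite directions in the genotypes, and none of these differences was tested. Summed T cell genes were higher in side A by 2.46 on the log2 scale within ff and differed by -2.16 within Vill. Summed Hoxa genes differed by -1.11 within ff and 0.278 within Vill. Pcca differed by -0.867 between the ff pairs and by 0.0961 between the Vill pairs. Read the other way, Pcca in Vill over ff was 0.2 in side A and -0.76 in side B.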

How the results depend on the processing

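The genotype test called 1 gene, and 5 without a filter on low counts, 55 with DESeq2, 2 with limma-voom, 2 with a replicate block beside the side, 51 with an interaction of genotype and side, and 1 to 4 when each library was left out in turn. DESeq2 size factors, no side term, a replicate block without the side, and leaving out ff 1 and ff 3 (added after seeing the data) each called 1. Replicate numbers did not pair the libraries: correlations of same-numbered libraries were 0.39, -0.36, -0.13 and 0.38. The Pcca difference stayed negative when each library was left out (-0.415 to -0.161).

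The 644 and 211 genes that separated the sides became 73 and 87 at a log2 limit of 2, 1042 and 393 with no CPM minimum, 1162 and 548 in the ff libraries alone, and 426 for the B side in Vill alone. Leaving out single libraries gave 538 to 799 and 190 to 305. In the order of the report, the 6 classes became 25, 55, 41, 44, 1 and 18 at a log2 limit of 2, and 799, 299, 495, 404, 239 and 253 with no minimum. Leaving out each library in turn, an alternative added after seeing the data, gave 306 to 568, 120 to 226, 194 to 290, 169 to 308, 46 to 168 and 72 to 152. Of lists with 4 or more tested genes, 11 had every gene on 1 side, and 9 to 13 when each library was left out. DESeq2 size factors kept each of these counts within 1.5 times. Depth limits genes at low CPM most: a count of 0 allows up to 0.12 to 0.17 CPM. The causes of these changes were not tested.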
